A study of Mus musculus with 2 samples.

Results

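The members were the genes of BAFF and APRIL with their receptors, 5 of the 32228 genes of the matrices, and they were chosen by name. Tnfsf13 encodes the ligand APRIL and Tnfsf13b the ligand BAFF, while Tnfrsf13c, Tnfrsf13b and Tnfrsf17 encode the BAFF receptor, TACI and BCMA. Levels were read in CD45+ cells of the colonic lamina propria of C57BL/6 mice aged 8 to 10 weeks by the labels, with colitis induced by dextran sulfate sodium (DSS) in both groups. One library came from WT mice and the other from Ring1AKO mice, which lack Ring1A, a ubiquitin ligase of the Polycomb complexes encoded by Ring1. Each was a pool of 5 mice, so there was no replicate and genotype cannot be told apart from library. Differences are therefore given without a test. The knockout was not limited to a cell type. Intervals are exact 95% intervals and cover counting error only. A 3′ count does not show whether Ring1 was disrupted upstream, and its level was 13.4 and 11.8 CPM, its UMIs relative to all UMIs of the same barcodes, in the libraries labelled WT and Ring1AKO.

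BAFF and APRIL are ligands of the tumour necrosis factor family that keep B cells and plasma cells alive. BAFF binds all 3 receptors, whereas APRIL binds TACI and BCMA. The BAFF receptor sustains naive B cells through non-canonical NF-κB, TACI takes part in class switching to IgA, and BCMA sustains plasma cells. In the gut, APRIL is known from myeloid and epithelial cells and BAFF from myeloid and stromal cells.

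Barcodes with at least 1000 UMIs and 500 genes and with less than 5% mitochondrial UMIs were kept, 6005 labelled WT with a median of 6354 UMIs and 7918 labelled Ring1AKO with a median of 5035. Cell types were gates set on the share of fixed marker genes detected in a barcode. The B gate held 1163 and 3540 barcodes, the IgA plasma gate 566 and 488, the IgG plasma gate 27 and 52, the monocyte/macrophage gate 698 and 291, the dendritic gate 134 and 138, the neutrophil gate 199 and 224, the lymphoid gate of T, NK and innate lymphoid cells 2064 and 1989 and the fibroblast gate 68 and 46. No barcode passed the eosinophil gate. In the B, monocyte/macrophage, dendritic, neutrophil, lymphoid and fibroblast gates the median barcode held at least 75% of the markers of its own list. In the IgA and IgG plasma gates the median barcode held 100% of the plasma markers. By fold over the other gates, IgA plasma included, immunoglobulin genes led the IgG plasma gate, with none of the plasma markers among its 10 leading genes. Of the barcodes, 17.5% and 14.1% fell in no gate, and 11 kept barcodes occurred in both libraries. In the monocyte/macrophage gate, 259 and 84 had less than 2.5 times the marker share of the next lineage, plasma not counted.

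The members lie on 4 chromosomes of GRCm38. Tnfsf13 (ENSMUSG00000089669) spans chr11:69682846-69685784 on the minus strand, Tnfsf13b (ENSMUSG00000031497) chr8:10006467-10039072 on the plus strand, Tnfrsf13b (ENSMUSG00000010142) chr11:61126755-61149372 on the plus strand, Tnfrsf13c (ENSMUSG00000068105) chr15:82221743-82224369 on the minus strand and Tnfrsf17 (ENSMUSG00000022496) chr16:11313812-11320074 on the plus strand. The antisense gene Tnfsf13os, which is counted separately, and a readthrough gene overlap Tnfsf13. The readthrough gene is not listed in the matrices, so whether the counts of Tnfsf13 include its transcripts is uncertain. All 5 members matched RefSeq promoters of GRCm38.p6. The 250 bases before the RefSeq start are shown for Tnfsf13b and the receptors. The window of Tnfsf13 overlapped an exon of its own gene and is not shown. The windows are chr8:10006217-10006466 for Tnfsf13b, chr15:82224381-82224630 for Tnfrsf13c, chr11:61126505-61126754 for Tnfrsf13b and chr16:11313559-11313808 for Tnfrsf17, each on the strand of its gene and 5′ to 3′, with motif matches in capitals.
Tnfsf13b: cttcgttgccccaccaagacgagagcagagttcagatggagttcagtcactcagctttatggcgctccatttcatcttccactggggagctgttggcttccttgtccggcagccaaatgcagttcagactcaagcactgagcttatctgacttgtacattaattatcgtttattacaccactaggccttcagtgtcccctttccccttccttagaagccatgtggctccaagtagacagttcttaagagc
Tnfrsf13c: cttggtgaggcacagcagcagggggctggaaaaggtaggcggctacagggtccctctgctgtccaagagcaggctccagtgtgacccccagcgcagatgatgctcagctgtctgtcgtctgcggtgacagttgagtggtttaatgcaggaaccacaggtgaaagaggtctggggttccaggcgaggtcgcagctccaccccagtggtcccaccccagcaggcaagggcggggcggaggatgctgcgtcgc
Tnfrsf13b: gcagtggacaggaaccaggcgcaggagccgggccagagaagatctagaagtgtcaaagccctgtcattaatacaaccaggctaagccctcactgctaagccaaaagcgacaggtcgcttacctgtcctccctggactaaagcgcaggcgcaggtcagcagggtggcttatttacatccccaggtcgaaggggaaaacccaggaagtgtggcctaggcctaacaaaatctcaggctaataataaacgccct
Tnfrsf17: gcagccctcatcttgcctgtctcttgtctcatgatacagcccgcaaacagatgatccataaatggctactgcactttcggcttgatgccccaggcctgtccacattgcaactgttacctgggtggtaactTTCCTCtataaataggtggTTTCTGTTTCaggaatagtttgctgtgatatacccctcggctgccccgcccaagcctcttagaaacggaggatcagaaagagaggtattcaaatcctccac
The motifs searched on both strands were GAAANNGAAA, an interferon-response core found in 3.04% of 27025 promoter windows, TGANTCA of AP-1 in 6.87%, GAGGAA of the ETS factors in 23.1% and ATGCAAAT, the octamer, in 1.61%. Tnfrsf17 held an interferon-response core and an ETS core on the opposite strand, and the other 3 windows shown held none of the 4 motifs. A second RefSeq start of Tnfsf13b lies at 10006633, and the bases just before it, chr8:10006607-10006632 on the plus strand within a first exon of GENCODE, held an interferon-response core. An AP-1 match lay farther upstream in the 250 bases before that start. The window of Tnfsf13, which is not shown, also held an AP-1 match.
Tnfsf13b, second start: tacaaaaactGAAAGTGAAAtgcgga
A match describes the letters only.

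Of the ligands, APRIL transcripts were highest in monocytes and macrophages, and their level there was not lower in the Ring1AKO library. Tnfsf13 stood at 59.7 CPM (53.7 to 66.2, 359 UMIs) in the monocyte/macrophage gate labelled WT and at 71.4 CPM (59.9 to 84.6, 134 UMIs) in the same gate of the Ring1AKO library. The log2 ratio of Ring1AKO over WT was 0.26 (-0.04 to 0.55). The interval included 0, and 81.1% of the 7447 genes tested in the gate had a lower ratio. The median over all these genes was -0.12, and 16% of them were lower and 7.47% higher in the Ring1AKO library by 1.5-fold. Tnfsf13 passed neither limit.

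Within the gate, barcodes with monocyte markers held 64.4 CPM and 81.0 CPM of Tnfsf13, and those with macrophage markers 41.6 CPM (30.2 to 55.9) and 67.4 CPM (50.8 to 87.8). The macrophage ratio was 0.70 (0.10 to 1.30), from 44 and 55 UMIs. Macrophages carried less Tnfsf13 than monocytes in the WT library, by 0.646-fold, whereas in the Ring1AKO library the fold of 0.833 had an interval that spanned equality (-0.79 to 0.26 on the log2 scale). Whether this contrast differed between the libraries was not tested.

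Other sources of Tnfsf13 rested on few UMIs. The fibroblast gate held 13.9 CPM and 18.2 CPM from 8 and 7 UMIs, and the epithelial gate 47.4 CPM (30.7 to 70.0) in 20 barcodes labelled WT and 14.9 CPM (1.81 to 53.9) in 7 labelled Ring1AKO. Among lymphoid cells, NK barcodes stood at 10.8 CPM (4.65 to 21.2) and 8.93 CPM (2.43 to 22.9), 14.1-fold and 11.1-fold above T barcodes, from only 8 and 4 UMIs. Free RNA would give NK barcodes 0.346 CPM and 0.224 CPM, if all of their Igha UMIs, the transcript of the IgA heavy chain, came from cell-free RNA. B, IgA plasma and dendritic gates held no more than 0.502 CPM in either library. In order of level, the monocyte/macrophage gate came first in both libraries, but its interval overlapped that of the epithelial gate in the WT library. The fibroblast and NK gates followed and did not differ beyond their intervals in either library.

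Over all kept barcodes Tnfsf13 was 11.4 CPM (10.6 to 12.3) and 4.82 CPM (4.32 to 5.37), a log2 ratio of -1.24 (-1.44 to -1.05). The monocyte/macrophage gate made up 11.6% of the barcodes labelled WT and 3.67% of those labelled Ring1AKO, and it held 50.8% (47.0 to 54.5) and 40.2% (34.9 to 45.7) of the Tnfsf13 UMIs. Barcodes in no gate held another 40.7% and 47.5%, at 19.9 CPM (17.6 to 22.3) and 11.5 CPM (9.78 to 13.4), a ratio of -0.79 (-1.08 to -0.51). After each barcode was thinned to 1000 UMIs, 5.30% (3.76 to 7.23) and 6.87% (4.25 to 10.4) of monocyte/macrophage barcodes had a Tnfsf13 UMI, against 0% and 0.0282% of B barcodes. Before thinning the shares were 33.9% and 30.2%, at median depths of 9191 and 6451 UMIs, against 0.0860% and 0.113% of B barcodes at 4180 and 4318.

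**Figure D1:**
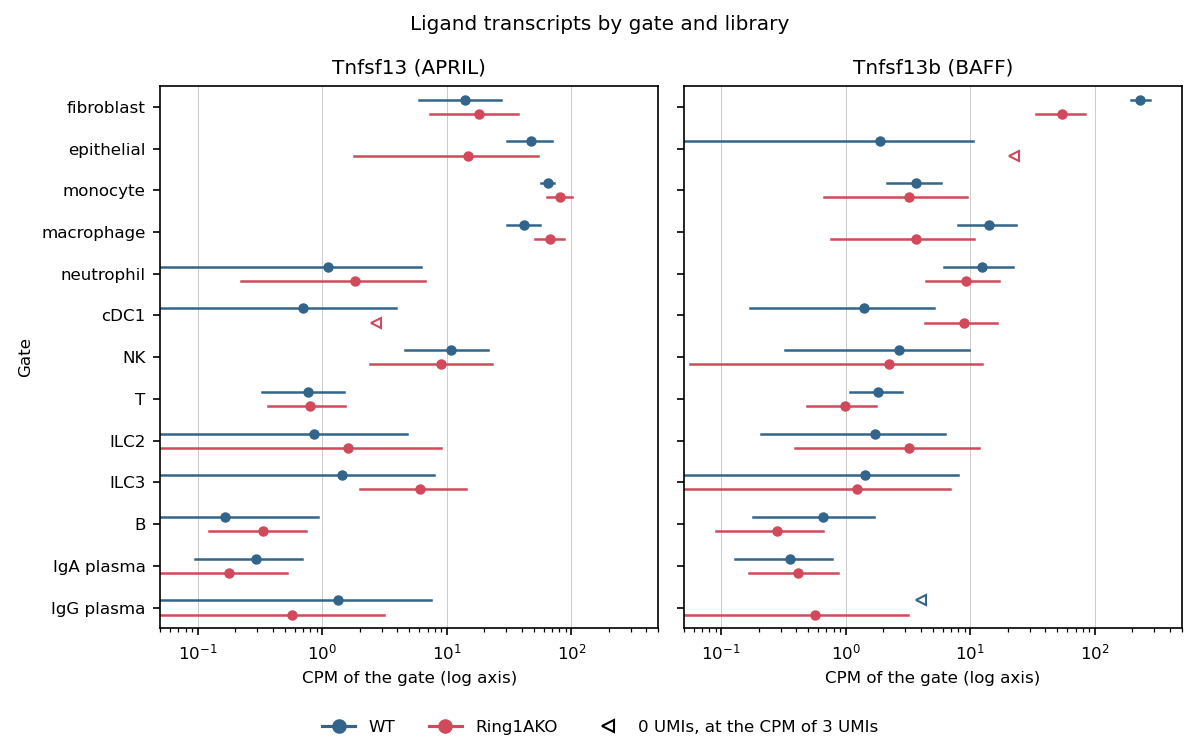
CPM of Tnfsf13 and Tnfsf13b (log axis) in each gate, with points for the summed UMIs of the WT library (blue) and the Ring1AKO library (red), lines for exact 95% Poisson intervals, cut at the left edge of the axis, and open triangles at the CPM of 3 UMIs where a gate held 0. Tnfsf13 was highest in monocytes, at 64.4 and 81.0 CPM, and Tnfsf13b in fibroblasts, at 232 and 54.7 CPM.

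BAFF transcripts were highest in the few fibroblast barcodes of the CD45+ sort, and they were lower there in the Ring1AKO library. The fibroblast gate, 1.13% and 0.581% of the kept barcodes, held 232 CPM (194 to 275, 133 UMIs) of Tnfsf13b labelled WT and 54.7 CPM (33.9 to 83.6, 21 UMIs) labelled Ring1AKO. The log2 ratio was -2.08 (-2.82 to -1.41), and 1.03% of the 3008 genes tested in the gate had a lower one. Of all genes tested there, 17.4% were lower and 9.91% higher by 1.5-fold, and the median ratio was -0.04.

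The 133 and 21 UMIs lay in 40 and 12 barcodes. The highest barcode held 11 of the 133 UMIs and 7 of the 21, and without both the ratio was -2.53 (-3.44 to -1.73). Tnfsf13b was detected in 58.8% and 26.1% of the fibroblast barcodes, at median depths of 8890 and 7802 UMIs, and in 16.2% (8.36 to 27.1) and 6.52% (1.37 to 17.9) after thinning to 1000 UMIs, against 0% and 0.0565% of B barcodes. These thinned intervals overlapped, and the ratio after thinning was -1.66 with an interval that included 0 (-4.10 to 0.18).

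The fibroblast gate was checked against leukocyte and stromal genes chosen after the values were seen. Ptprc, which encodes the CD45 used for the sort, was at 22.7 CPM and 5.21 CPM there, against 1422 and 820 CPM in the lymphoid gate. The matrix genes Dcn, at 6426 and 5942 CPM, and Col3a1, at 3838 CPM (3680 to 4002) and 3100 CPM (2927 to 3281), were detected in most of the barcodes. Both are markers that set the gate, so their detection follows from the gating and is no check of it. Several other stromal genes were lower in the Ring1AKO library beyond counting error, by less than Tnfsf13b. Adamdec1, a gene of colonic fibroblasts, was 4411 CPM (4241 to 4587) and 3116 CPM (2942 to 3298), in 85.3% and 67.4% of the barcodes. The chemokine gene Cxcl12 was 1674 and 1159 CPM, and Pdpn, a surface marker of stromal cells, 474 and 326 CPM. The part of the make-up of the gate in the lower Tnfsf13b was not tested. Cxcl13, a chemokine of lymphoid stroma that attracts B cells, moved in the opposite direction to Tnfsf13b, at 866 CPM (791 to 946) and 2618 CPM (2459 to 2785), found in 20 of 68 and 19 of 46 barcodes. Tnfsf13b was 443 CPM (350 to 553) and 64.3 CPM (30.8 to 118) in the barcodes with a Cxcl13 UMI and 138 CPM (104 to 180) and 48.2 CPM (24.1 to 86.2) in those without. The lower level in the Ring1AKO library thus held in both sets of barcodes, while the WT library showed a gap between the sets that the Ring1AKO library, with 10 and 11 UMIs, did not resolve.

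Leukocytes held less Tnfsf13b. Neutrophils came next, with 12.3 CPM (6.16 to 22.1) and 9.18 CPM (4.40 to 16.9) and a log2 ratio of -0.43 (-1.82 to 0.95), in a gate where 21.1% of all genes were lower and 8.04% higher by 1.5-fold. They lay 6.76-fold and 8.02-fold above the lymphoid gate. The monocyte/macrophage gate held 5.65 CPM (3.91 to 7.90, 34 UMIs) and 3.20 CPM (1.17 to 6.96, 6 UMIs), a ratio of -0.82 (-2.36 to 0.45). Its macrophage barcodes stood at 14.2 CPM and 3.68 CPM, from 15 and 3 UMIs, a ratio of -1.95 (-4.38 to -0.13), and in the WT library they lay 3.89-fold above monocytes. Neutrophil and macrophage levels did not differ beyond their intervals in either library.

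Dendritic cells gave the opposite direction from few UMIs. In the cDC1 barcodes, cross-presenting dendritic cells, Tnfsf13b had 2 UMIs in the WT library and 10 in the Ring1AKO library, 1.40 CPM and 8.93 CPM, with a ratio of 2.67 (0.44 to 5.90). Over the whole dendritic gate the ratio was 1.92 (-0.04 to 4.42), from 3 and 10 UMIs, and it was 0.064 as a mean over cells and 0.42 without deep barcodes. In this gate 18.1% of all genes were lower and 4.92% higher by 1.5-fold, and the median ratio was -0.17. The lymphoid gate held 1.83 CPM and 1.14 CPM, with a ratio of -0.68 (-1.71 to 0.32), and in the B and IgA plasma gates no level exceeded 0.658 CPM.

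Over all kept barcodes Tnfsf13b was 4.59 CPM (4.07 to 5.16) and 1.49 CPM (1.22 to 1.81), a log2 ratio of -1.62 (-1.96 to -1.29). The fibroblast gate held 46.8% (40.9 to 52.8) of its UMIs in the WT library and 20.4% (13.1 to 29.5) in the Ring1AKO library. These shares and the ratio over all barcodes also depend on how many fibroblasts passed the CD45+ sort. They made up 1.13% and 0.581% of the barcodes, and the part of the sort was not tested. Barcodes in no gate held 23.9% and 27.2%, and 27 of their 68 UMIs labelled WT and 11 of 28 labelled Ring1AKO lay in barcodes with at least 3 fibroblast markers. Leukocyte gates held most of the rest. The largest of their shares was 12.0% in monocytes/macrophages of the WT library and 14.6% in lymphoid cells of the Ring1AKO library. Neutrophils and dendritic cells of the Ring1AKO library held 9.71% each. Only 1.58% and 0.344% of monocyte/macrophage barcodes had UMIs of both ligands.

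**Figure D2:**
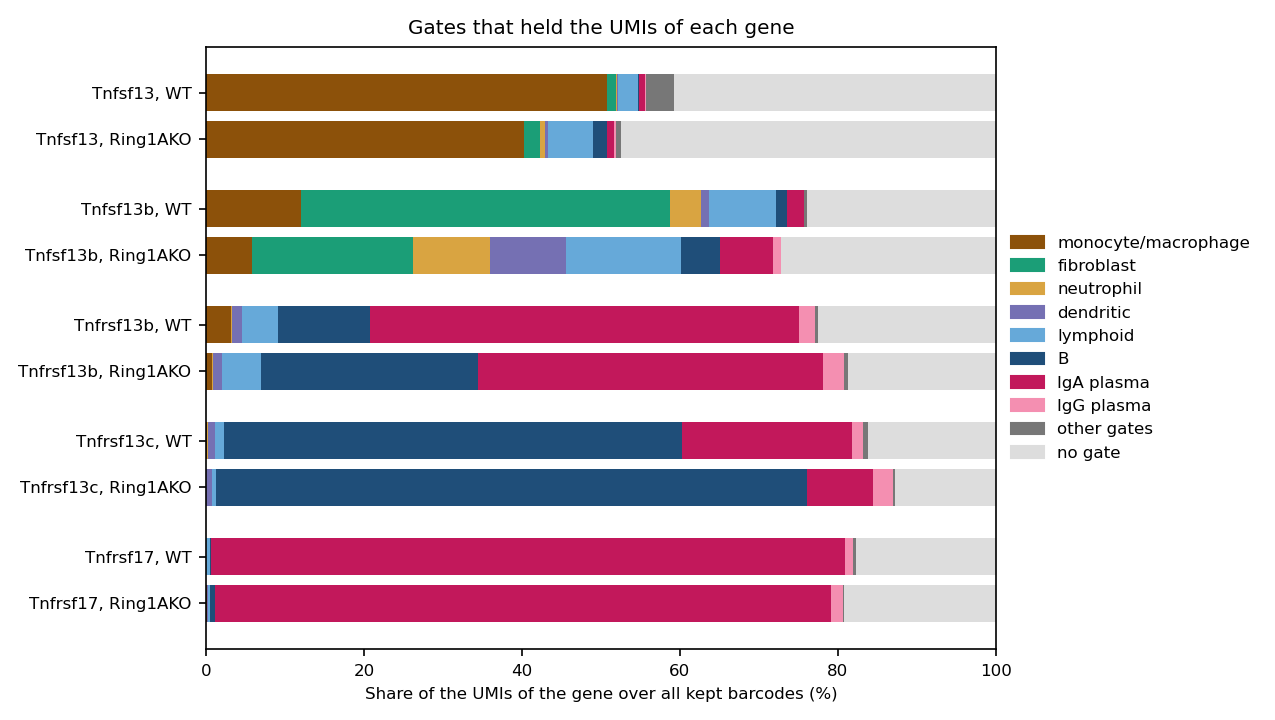
Bars divide the UMIs of each gene over all kept barcodes (percent, 1 bar per library) among the gates, with barcodes in no gate in light grey. Fibroblasts, few in this CD45+ sort, held 46.8% of Tnfsf13b UMIs in the WT library and 20.4% in the Ring1AKO library. B cells held 58.1% and 74.9% of Tnfrsf13c, and IgA plasma cells 80.2% and 78.0% of Tnfrsf17.

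Among the B and plasma gates of both libraries, Tnfrsf13c was highest in B cells but was also found in plasma cells. Tnfrsf17 was highest in IgA plasma cells, and Tnfrsf13b was found in both cell types and outside the lineage.

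Tnfrsf13c, the BAFF receptor, stood at 175 CPM (165 to 186, 1067 UMIs) in the B gate labelled WT and 152 CPM (147 to 158, 2708 UMIs) in that labelled Ring1AKO. The log2 ratio of -0.20 (-0.31 to -0.10) was beyond counting error, but it lay at the median of the 9809 genes tested in B cells, which was -0.19. B barcodes with germinal centre markers held 207 CPM (177 to 242) and 213 CPM (179 to 252), and the other B barcodes 171 CPM (160 to 182) and 150 CPM (144 to 156), so germinal centre barcodes were higher by 1.22-fold and 1.42-fold. B cells lay above plasma cells, and IgA plasma cells held 0.132-fold and 0.119-fold of the B cell level. Without immunoglobulin genes in the denominator these folds were 0.314 in the WT library and 0.367 in the Ring1AKO library.

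Plasma cells held less Tnfrsf13c than B cells. IgA plasma barcodes held 23.2 CPM (21.0 to 25.7) and 18.1 CPM (16.1 to 20.2), a ratio of -0.36 (-0.58 to -0.14) that turned to 0.026 without immunoglobulin genes in the denominator and to 0.21 after thinning to 1000 UMIs. The median of all genes in the gate was -0.44, and 58% of them had a lower ratio. IgG plasma barcodes held 33.7 CPM (21.8 to 49.8, 25 UMIs) and 49.9 CPM (40.0 to 61.5, 88 UMIs), a ratio of 0.56 (-0.09 to 1.27). IgG plasma cells were 1.45-fold above IgA plasma cells in the WT library, within counting error, and 2.76-fold above them in the Ring1AKO library, beyond it. Immunoglobulin genes took 51.8% and 49.7% of the IgG plasma UMIs labelled WT and Ring1AKO, against 58.4% and 68.2% of the IgA plasma UMIs. These folds include that difference and were not recomputed without it. B markers did not count against the plasma gates. Over all kept barcodes Tnfrsf13c was 29.7 CPM and 52.4 CPM, a ratio of 0.82 (0.74 to 0.90), and the B gate made up 19.4% and 44.7% of the barcodes. After thinning to 1000 UMIs, 17.0% (14.9 to 19.3) and 13.2% (12.1 to 14.3) of B barcodes had a Tnfrsf13c UMI, against 0.0484% and 0.302% of lymphoid barcodes. The unthinned shares were 47.5% and 43.2%, against 0.921% and 0.955% of lymphoid barcodes at median depths of 5520 and 5497. IgA plasma barcodes, which were deeper, had unthinned shares of 44.5% and 39.6%, and of 1.94% and 2.25% after thinning. In IgG plasma barcodes the unthinned shares were 55.6% and 71.2%, and the thinned ones 0% and 3.85%. Fibroblasts had 0 UMIs of Tnfrsf13c in both libraries, which allows up to 5.22 CPM and 7.82 CPM.

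Tnfrsf13b, which encodes TACI, was lower in the Ring1AKO library in all of the 6 main gates with at least 20 of its UMIs in both libraries together, and beyond counting error in 5. The share of all genes that were lower beyond counting error, or lower in all of these gates, was not counted. Of all genes tested, 69.2% had a ratio below 0 in B cells, 88.5% in IgA plasma cells and 46.6% in IgG plasma cells. In the monocyte/macrophage, dendritic and lymphoid gates 60.6%, 64.6% and 53.6% did. B cells held 96.2 CPM (88.6 to 104, 585 UMIs) and 58.7 CPM (55.1 to 62.3, 1043 UMIs), a log2 ratio of -0.71 (-0.86 to -0.56). Of all genes tested in B cells, 18.1% were lower and 2.93% higher by 1.5-fold, and 12.5% had a lower ratio than Tnfrsf13b. Germinal centre barcodes had a ratio of -0.55 (-1.15 to 0.04) and the other B barcodes -0.73 (-0.89 to -0.57).

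IgA plasma cells held more Tnfrsf13b than B cells, by 1.68-fold in each library, and by 3.99-fold in the WT library and 5.2-fold in the Ring1AKO library without immunoglobulin genes in the denominator. Their level was 162 CPM (156 to 168, 2744 UMIs) and 98.6 CPM (94.0 to 103, 1657 UMIs), a ratio of -0.71 (-0.80 to -0.63). Most genes were lower in this gate, with 36.5% of 9281 lower and 1.38% higher by 1.5-fold and a median of -0.44, and 26.6% had a lower ratio than Tnfrsf13b. Immunoglobulin genes took 58.4% of the UMIs of the IgA plasma gate labelled WT and 68.2% of those labelled Ring1AKO. With these genes left out of the denominator, the median of all genes was -0.05 and Tnfrsf13b was at -0.33.

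IgG plasma cells showed a wider gap in Tnfrsf13b. Their level was 142 CPM (116 to 171) and 57.3 CPM (46.6 to 69.6), a ratio of -1.31 (-1.72 to -0.90), in a gate where 17.7% of 3030 genes were lower and 15% higher by 1.5-fold, the median was 0.05 and 2.77% of genes had a lower ratio. With immunoglobulin genes in the denominator, the WT level did not differ from that of IgA plasma cells beyond counting error. In the Ring1AKO library it was 0.581-fold of it. Immunoglobulin genes took 51.8% and 49.7% of the IgG plasma UMIs labelled WT and Ring1AKO, against 58.4% and 68.2% of the IgA plasma UMIs. A larger share lowers the CPM of all other genes, and the contrast was not recomputed without these genes.

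Tnfrsf13b was also read outside the B lineage. Plasmacytoid dendritic cells, known for interferon production, held 130 CPM (90.2 to 182) in 26 barcodes and 111 CPM (67.9 to 172) in 18, a ratio of -0.23 (-1.10 to 0.61). Monocyte/macrophage barcodes held 26.4 CPM (22.5 to 30.9, 159 UMIs) and 15.5 CPM (10.4 to 22.2, 29 UMIs), a ratio of -0.77 (-1.40 to -0.20), against 1.68 CPM and 2.13 CPM from free RNA if all their Igha were free. In the whole dendritic gate the ratio was -0.25 (-0.83 to 0.32). Of the genes tested, 42.9% had a lower ratio than Tnfrsf13b in the dendritic gate and 10.1% in the monocyte/macrophage gate. The median monocyte/macrophage and dendritic barcodes held 3 of the 8 plasma markers in the WT library and 2 in the Ring1AKO library. Plasma markers did not count against these gates, and doublets were kept.

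Among T cells, Tnfrsf13b was higher in the barcodes with a UMI of Foxp3, the transcription factor of regulatory T cells, a split made after the values were seen. It was not limited to them, with 104 and 100 UMIs in barcodes with Foxp3 and 125 and 77 in those without. T barcodes with Foxp3 held 69.9 CPM (57.1 to 84.7) and 43.9 CPM (35.7 to 53.4), and those without 13.9 CPM (11.6 to 16.5) and 8.65 CPM (6.83 to 10.8). Foxp3+ barcodes were thus 5.04-fold and 5.08-fold higher. The ratios between the libraries were -0.67 (-1.08 to -0.26) and -0.68 (-1.11 to -0.26). One Foxp3+ barcode labelled Ring1AKO held 14 of the 100 UMIs, and without the top barcode of each library the ratio was -0.74 (-1.17 to -0.30). In the lymphoid gate as a whole the ratio was -0.36 (-0.65 to -0.08), in a gate where 10.4% of genes were lower and 4.63% higher by 1.5-fold and the median was -0.04. Of the genes tested there, 22.2% had a lower ratio than Tnfrsf13b.

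By share of barcodes, Tnfrsf13b was found after thinning to 1000 UMIs in 7.91% (6.42 to 9.61) and 4.75% (4.07 to 5.50) of B cells and in 16.8% (13.8 to 20.1) and 10.0% (7.52 to 13.1) of IgA plasma cells. The intervals of both pairs did not overlap. Thinning counted immunoglobulin UMIs, 58.4% of the IgA plasma UMIs labelled WT and 68.2% of those labelled Ring1AKO, so the IgA plasma pair still holds that difference. Fibroblasts, with 1 UMI in each library, had 0% in both. The unthinned shares were 30.5% and 21.5% of B cells and 95.2% and 84.2% of IgA plasma cells, against 1.47% and 2.17% of fibroblasts at 8890 and 7802 UMIs.

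Tnfrsf17, which encodes BCMA, was found in plasma cells and little elsewhere. IgA plasma cells held 103 CPM (98.0 to 108, 1742 UMIs) and 94.5 CPM (89.9 to 99.2, 1587 UMIs), a ratio of -0.12 (-0.22 to -0.02) that turned to 0.27 when immunoglobulin genes were left out of the denominator. Its ratio was above the median of all genes, and 80.7% of genes had a lower one. The change of denominator shifts all genes alike and leaves this place as it was. IgG plasma cells held 31.0 CPM (19.7 to 46.6, 23 UMIs) and 16.4 CPM (11.0 to 23.6, 29 UMIs), a ratio of -0.92 (-1.76 to -0.06). One IgG plasma barcode labelled WT held 8 of the 23 UMIs, and without the top barcode of each library the ratio was -0.62 (-1.60 to 0.42).

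Tnfrsf17 was lower in IgG than in IgA plasma cells. IgG plasma cells held 0.302-fold of the IgA plasma level in the WT library and 0.174-fold in the Ring1AKO library, both beyond counting error. These folds were likewise not recomputed without immunoglobulin genes in the denominator. IgA plasma barcodes with cycling markers stood at 103 CPM (90.5 to 117) and 133 CPM (110 to 160), with a ratio of 0.37 (0.04 to 0.69) that was 0.31 (-0.04 to 0.65) without the top barcode of each library, and the other IgA plasma barcodes at 103 CPM and 92.3 CPM, with a ratio of -0.15 (-0.26 to -0.05). B cells held 0.493 CPM and 0.787 CPM, and neutrophils, NK cells and fibroblasts had 0 UMIs in both libraries. After thinning to 1000 UMIs, 10.2% (7.87 to 13.1) and 9.63% (7.16 to 12.6) of IgA plasma barcodes had a Tnfrsf17 UMI, against 0% and 0.101% of lymphoid barcodes. Thinned to 2000 UMIs, 19.5% (16.31 to 23.02) and 13.08% (10.18 to 16.45) of IgA plasma barcodes did, a wider gap with intervals that still overlapped. Thinning counted immunoglobulin UMIs here too. The unthinned shares were 79.5% and 77.5% at median depths of 27405 and 34868 UMIs, against 0.533% and 0.251% of lymphoid barcodes.

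**Figure D3:**
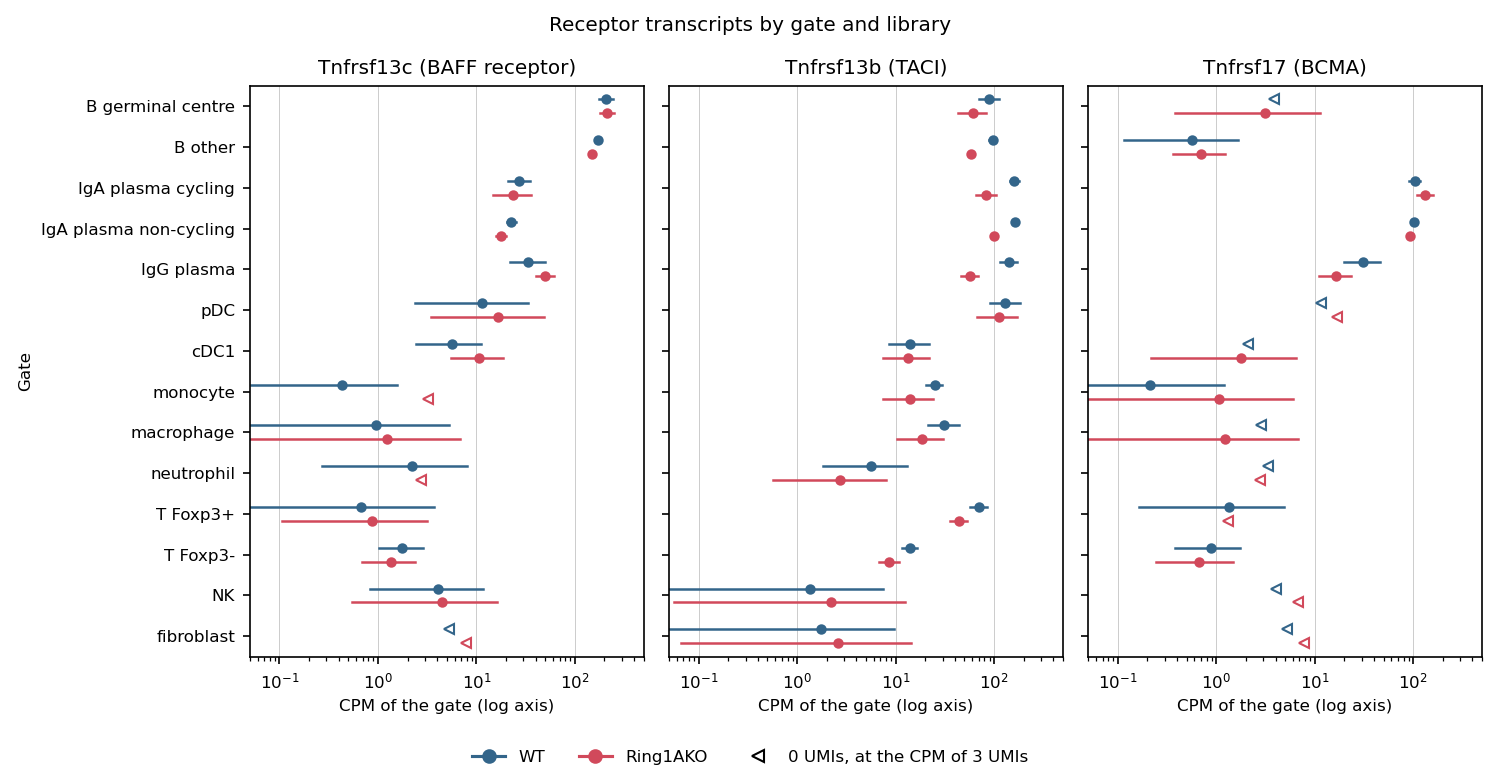
CPM of Tnfrsf13c, Tnfrsf13b and Tnfrsf17 (log axis) in each gate, with points for the WT library (blue) and the Ring1AKO library (red), lines for exact 95% Poisson intervals, cut at the left edge of the axis, and open triangles at the CPM of 3 UMIs where a gate held 0. Tnfrsf13c was highest in B cells and Tnfrsf17 in IgA plasma cells, while Tnfrsf13b was also found in plasmacytoid dendritic cells, at 130 and 111 CPM, and in Foxp3+ T cells, at 69.9 and 43.9 CPM.

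Receptors were also counted together in single barcodes. UMIs of both Tnfrsf17 and Tnfrsf13b were found in 76.5% of IgA plasma barcodes labelled WT and 70.9% of those labelled Ring1AKO, and UMIs of neither in 1.77% and 9.22%. In B cells both Tnfrsf13c and Tnfrsf13b were found in 16.8% and 11.5%, Tnfrsf13c alone in 30.7% and 31.7%, Tnfrsf13b alone in 13.8% and 10.0%, and neither in 38.8% and 46.8%. These shares were not thinned. The median depth of the B gate was alike, whereas that of the IgA plasma gate was higher in the Ring1AKO library. Immunoglobulin genes took 58.4% of the IgA plasma UMIs labelled WT and 68.2% of those labelled Ring1AKO. Depth without these genes was not compared.

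**Figure D4:**
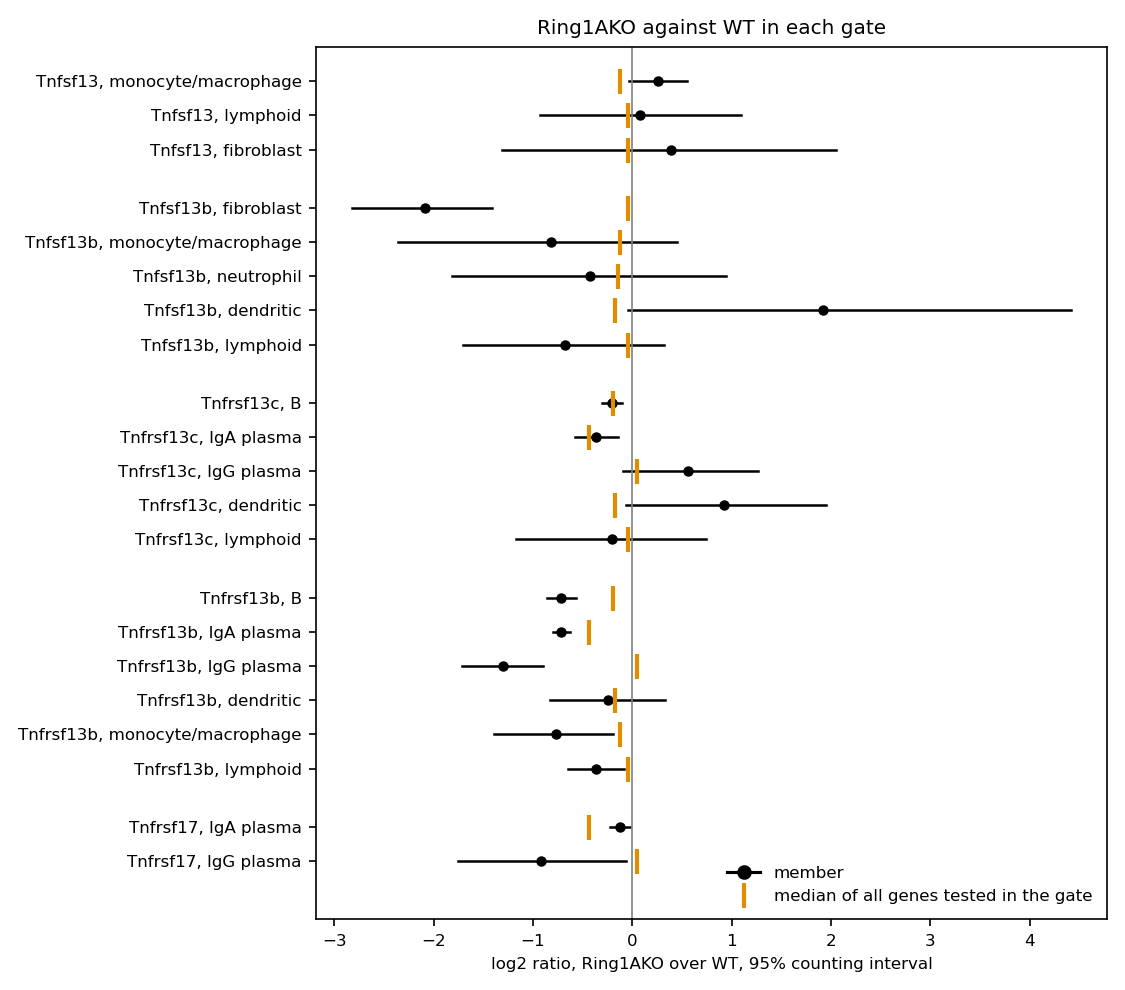
Log2 ratios of Ring1AKO over WT (points) with exact 95% counting intervals (lines) for each gene and gate, and the median of all genes tested in that gate (orange bars). Tnfsf13b in fibroblasts, at -2.08, and Tnfrsf13b in B cells, at -0.71, and in IgG plasma cells, at -1.31, lay below both 0 and the median, and Tnfrsf13c in B cells, at -0.20, lay on the median.

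The genes that process the ligands, carry the signal of the receptors and set cell survival were counted from a list of 33. In each of the gates examined 31 had at least 50 UMIs, but not the same 31. The gene of a related ligand, Tnfsf12, fell short in B and IgA plasma cells, and Pim2 in monocytes/macrophages. In B cells 2 were lower by 1.5-fold and none was higher, with a median of -0.14 beside -0.19 for all genes, of which 18.1% were lower and 2.93% higher. They were Adam17, a sheddase, at -0.73 (-0.95 to -0.50) and Traf3, the adaptor that restrains the non-canonical pathway, at -0.77 (-0.98 to -0.56). The NF-κB subunits, all within 1.5-fold, had ratios of 0.24 for Nfkb2, 0.43 for Relb, 0.15 for Rela, -0.18 for Nfkb1 and -0.36 for Rel, and the kinases that act upstream of Nfkb2 were at -0.55 for Chuk and -0.14 for Map3k14.

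In IgA plasma cells 7 of the 31 genes were lower by 1.5-fold, beside 36.5% of all genes, with a median of -0.36 beside -0.44. They were the sheddases Adam10, at -0.87, which is known to cleave TACI and the BAFF receptor, and Adam17, at -1.11, the adaptors Traf1, at -0.65, Traf3, at -0.99, and Traf6, at -0.72, the kinase Chuk, at -0.87, and the survival gene Bcl2l1, at -0.75. One was higher, the survival gene Bcl2a1b, at 0.71 (0.35 to 1.07). Without immunoglobulin genes in the denominator only Adam17 and Traf3 of these 7 were lower by 1.5-fold, beside 12.2% of all genes, and Bcl2a1b and Tnfrsf12a, the receptor of the related ligand Tnfsf12, were higher, beside 4.45%. Mcl1, which BCMA signalling is known to sustain, was at -0.47 (-0.53 to -0.42), close to the median of the gate.

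In monocyte/macrophage barcodes 1 of 31 was lower by 1.5-fold, Chuk at -0.60 (-1.03 to -0.19), and 2 were higher, beside 16% and 7.47% of all genes. The survival genes Bcl2l1, at 1.25 (0.41 to 2.08), and Bcl2a1b, at 1.11 (1.02 to 1.21), were the higher ones, and the median was -0.12 as for all genes. The gate held 509 monocyte and 155 macrophage barcodes labelled WT and 124 and 147 labelled Ring1AKO. Within monocytes the ratio was 1.55 (-0.03 to 3.01) for Bcl2l1 and 1.00 (0.84 to 1.16) for Bcl2a1b, and within macrophages 0.11 (-0.98 to 1.18) and 0.38 (0.24 to 0.51).

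Over 30 profiles of 15 gates and subgates in both libraries, which overlap and share a library, the genes whose log2 levels ran most like those of each member were listed. A gate needed at least 50 barcodes in each library, which left out fibroblasts, IgG plasma cells and plasmacytoid dendritic cells. The list of Tnfsf13b was thus made without the gate where it was highest. For Tnfsf13 these were Cmklr1 (r = 0.973), Ctdspl, Msr1, Gab1 and Adora2b, and for Tnfsf13b Jdp2 (r = 0.827), Antxr2, Pilrb1, Gm15832 and Snx10. For Tnfrsf13c they were Gm10553 (r = 0.967), Lynx1, Rasgrp3, Cecr2 and Trim7, for Tnfrsf13b Stac2 (r = 0.885), St8sia6, Tpst1, Pou2af1 and Gm30211, and for Tnfrsf17 the nonagouti gene a (r = 0.992), Ccr10, Prlr, Prg2 and Bhlha15. The correlations describe 9365 genes across profiles that are not independent.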

How the data were processed

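The authors sorted live CD45+ cells, made 3′ libraries (10x Genomics) and deposited unfiltered UMI counts per gene and barcode, with 74414511 and 81862096 UMIs. The deposited header names Cell Ranger 4, the submitters' processing notes Cell Ranger 6.0.2, Seurat and mm39, and the methods text another version and mm10. Gene positions came from GENCODE on GRCm38. UMIs were summed over the barcodes of a gate and scaled to its summed UMIs (CPM), with exact Poisson intervals. Ratios have exact conditional intervals at 95%, tested on simulated Poisson counts, and shares Clopper-Pearson intervals at 95%, which were not simulated. A gate needed at least 3 markers and a share of markers detected at least 2 times that of any other lineage. Plasma markers did not count against the other gates, nor B markers against the plasma gates. A plasma gate needed at least 2% of UMIs from heavy-chain constant genes, and the other gates needed less. Doublets were kept, with no caller run. Floors for 0 UMIs used 3 counts. Genes with a sum of 50 UMIs or more from the pair of libraries were compared with a limit of 1.5-fold, after adding 0.5 UMI for the medians and places of all genes. Cell-free RNA came from barcodes with fewer than 100 UMIs. Correlations used log2(CPM + 5) of genes with at least 500 UMIs, without members, gate markers, immunoglobulin and T-cell-receptor genes, and the 5 highest were named. Pathway genes past 1.5-fold were named, and Mcl1, the NF-κB subunits and Map3k14 after their values were seen, as was Chuk in B cells. Of 33 pathway genes, Camlg was not matched by symbol. The members and lists were chosen with earlier results of these data known. Python 3.11.15, numpy 2.4.6, scipy 1.17.1, pandas 2.3.3 and matplotlib 3.10.9 were used.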

Additional observations from a re-analysis of the deposited data

How the results depend on the processing

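The 19 ratios between the libraries were recomputed under 13 alternatives, of which 5 ratios were added after the data were seen. Tnfrsf13b in B cells stayed between -0.76 and -0.68 and Tnfsf13 in monocytes/macrophages between 0.21 and 0.37. Without immunoglobulin genes in the denominator, IgA plasma ratios moved to -0.33 for Tnfrsf13b, reversed to 0.27 for Tnfrsf17 and reversed to 0.026 for Tnfrsf13c, by a shift of 0.39 that all genes share. Thinned to 1000 UMIs, Tnfsf13b in lymphoid cells moved to -2.53 and Tnfrsf13c in B cells to -0.35. Tnfrsf13b in IgG plasma cells moved to -1.75 (-3.97 to 0.22) and Tnfrsf13c in IgA plasma cells reversed to 0.21. Of these thinned ratios, only that of Tnfrsf13c in B cells had an interval without 0, and the cause of the moves was not tested. With a dominance of 3 times in the gates, Tnfsf13b in monocytes/macrophages moved to 0.54 and in fibroblasts to -3.39, from fewer barcodes. Tnfsf13b in fibroblasts lay between -3.39 and -1.65 and Tnfrsf13b in IgG plasma cells between -1.75 and -1.29. Tnfrsf13b in lymphoid cells, lower under every alternative, lay between -0.95 and -0.30. Thinned to 2000 UMIs, Tnfrsf13b was found in 15.7% and 9.52% of B cells. Alternatives that left 0 UMIs in a library gave no value, 3 for Tnfsf13 in dendritic cells, 2 in neutrophils, and 1 each for Tnfsf13b in monocytes/macrophages and dendritic cells and for Tnfrsf17 and Tnfrsf13c in IgG plasma cells. No paired analysis was possible because the WT and Ring1AKO groups hold 1 library apiece. Tnfsf13b in dendritic cells lay between 0.06 and 2.19. Low counts limit most ligand ratios, with 11 and 10 UMIs of Tnfsf13b in neutrophils and 18 and 19 of Tnfsf13 in lymphoid cells.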
